A study of Danio rerio with 48 samples.

Results

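Brains of founder (F0) female zebrafish from an early-life exposure to the insecticide permethrin (10 µg/L) were set against brains of control F0 females. The 8 libraries were chosen by their labels as generation F0, female, with the source code PH for 4 fish (F0_F_PH 9, 10, 15 and 16) and SCA for the other 4 (F0_F_SCA 14, 15, 16 and 18), out of 48 libraries in all. The labels do not spell these codes out; PH is taken to mean permethrin fish, and SCA control fish. All 8 fish were adults of the AB laboratory line, neither group carries a transgene or mutation in the labels, and both were sampled as whole brain, long after the early-life treatment. The other 40 libraries are F0 males and unexposed F1 and F2 fish of both lineages, with 4 libraries in each of the 12 groups.

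Permethrin is a pyrethroid insecticide that binds voltage-gated sodium channels and slows their closing, so that neurons fire repeatedly. Fish break it down with carboxylesterases and cytochrome P450 enzymes, and calcium channels, GABA receptors and hormone pathways have been studied as further targets. Zebrafish tissues, brain included, hold light-responsive clocks in which per2, some cryptochromes and DNA repair genes are switched on by light.

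The 8 libraries were alike in depth, with 7655597 to 8034972 counts in annotated genes and 23160 to 23610 genes with at least 1 count, and all carried the same sequencing lane in their run labels. Neurons and glia of the brain were plainly represented. ELAVL3, an RNA-binding protein of neurons, lay at 1362 ± 141 CPM in PH and 1362 ± 88.5 CPM in SCA females, and mbpa, a myelin protein, at 6908 ± 1326 and 7705 ± 1531 CPM (SD, n = 4 each; CPM is counts scaled to a common library size). In bulk brain, fewer cells of a type and less RNA per cell cannot be told apart.

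F0_F_SCA 18 stood apart by transcripts of the eye. The 66 gene IDs of the lens list, mostly crystallins, summed to 24.1, 24.6, 23.1 and 23.7 CPM in PH 9, 10, 15 and 16, against 39.5, 40.0 and 232 CPM in SCA 14, 15 and 16 and 68786 CPM in SCA 18. In SCA 18 they took 6.45% of all counts in genes. Lens genes were thus lowest in the 4 exposed fish, somewhat higher in SCA 14 and 15, clearly higher in SCA 16 and a dominant component of SCA 18. SCA 18 had 148 genes more than 4-fold above the highest of the other 7 females (on CPM + 1), 42 of them lens and 16 photoreceptor genes, while the other libraries had 0 to 15 such genes. Of those 148 genes 0 stood in the list of other retinal neurons and glia and 0 in the pigment list. cabp5a, a calcium-binding protein of retinal bipolar cells, had 14.3 CPM in SCA 18 and tspan36, a pigment cell gene, 5.17 CPM. Both were picked as members with a large excess in SCA 18, and their lists as a whole were not highest there. Summed genes of other retinal neurons and glia were at 846 CPM in SCA 18, against 818 to 902 CPM in PH females. Summed pigment genes were at 128 CPM in SCA 18, against 116 to 162 CPM in PH females.

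A pineal gene divided the fish within both groups. ASMT, the last enzyme of melatonin synthesis, lay at 1.10045, 17.5, 0.252 and 0.738 CPM in PH 9, 10, 15 and 16, against 1.44, 8.20, 19.8 and 1.46 CPM in SCA 14, 15, 16 and 18. Melatonin is made in the pineal, a small organ on top of the brain. The 3 fish with high ASMT were thus 1 exposed and 2 control females, and SCA 18 was not among them, although the summed pineal list, part of which is shared with the photoreceptor list, was highest there at 266 CPM.

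Brain region genes also separated single fish, and the telencephalon, preoptic and hindbrain Hox lists leaned lower in exposed females. Cerebellum markers did not, with 13 higher and 8 lower means among 21 tested (median log2 fold change 0.06). Their summed level was 4653 to 5392 CPM in PH and 3783 to 5257 CPM in SCA females. Telencephalon factors had 2 higher and 20 lower means among 22 tested, with a median log2 fold change of -0.47 (-0.61 without SCA 18) and 0 called. Their summed level was 465 CPM in PH 9, 583 to 671 CPM in the other PH and 589 to 834 CPM in SCA females. Preoptic and hypothalamic factors had 2 higher and 9 lower means among 11 (median -0.14). The neuropeptide oxytocin (oxt) was at 2.89 CPM in PH 9, while the other 3 PH females had 84.8 to 149 CPM and the 4 SCA females 100.4 to 222 CPM. Hindbrain Hox genes had 2 higher and 10 lower means among 12 tested (median -0.39, or -0.47 without SCA 18). The 23 IDs of the hindbrain Hox list summed to 9.63, 6.05, 30.5 and 58.2 CPM in PH 9, 10, 15 and 16, against 1.57, 49.5, 47.2 and 38.9 CPM in SCA females. PH 9, PH 10 and SCA 14 thus had little Hox transcript. The lists of brain region genes were written after these values were seen, and the part of such differences between brains in the results below was not tested beyond repeating the counts without single libraries.

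**Figure D1:**
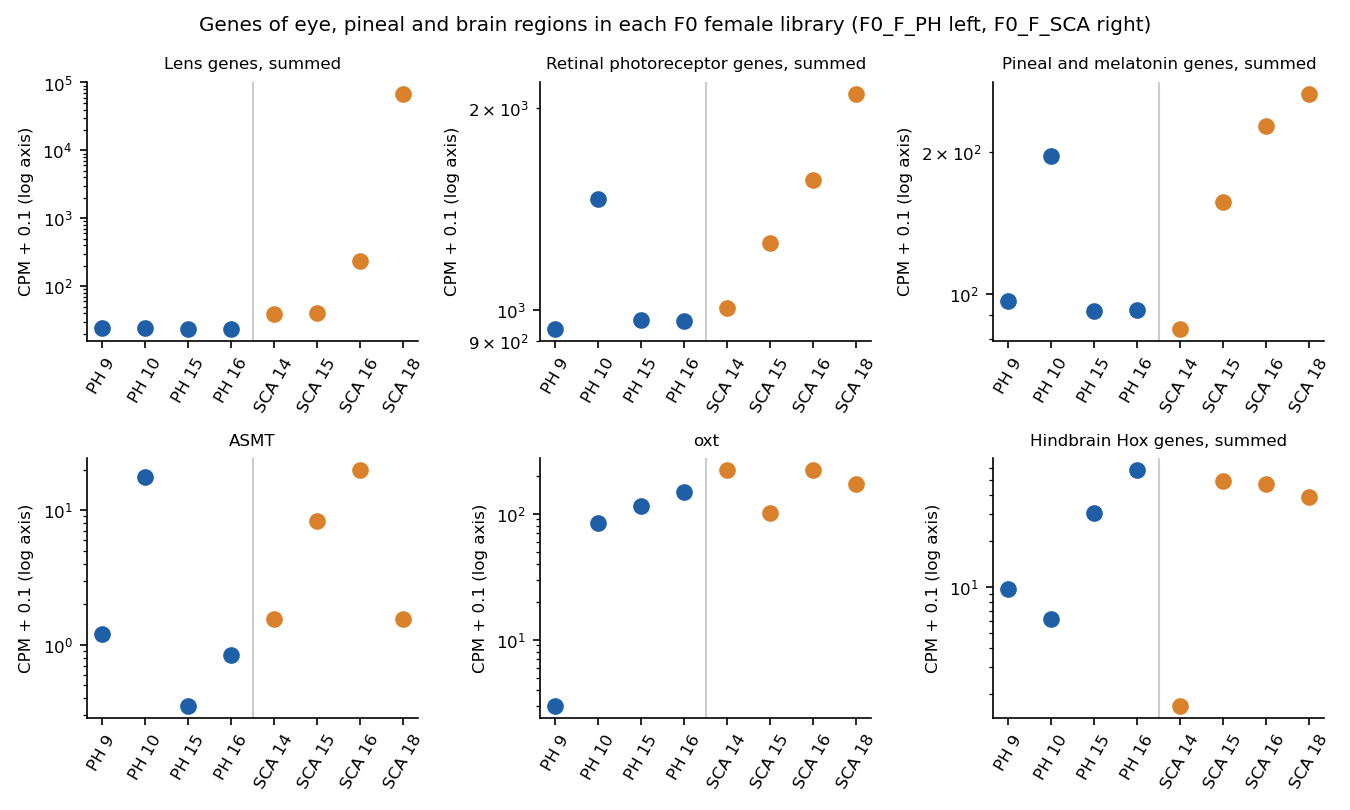
Summed or single-gene CPM (with 0.1 added, log axis) of genes of the lens, retina, pineal and brain regions in each F0 female library, F0_F_PH in blue on the left and F0_F_SCA in orange on the right. Lens transcripts reached 68786 CPM in F0_F_SCA 18, oxt was lowest in F0_F_PH 9, and ASMT was high in 3 fish from both groups.

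No gene passed the test between exposed and control F0 females. Of 18081 genes tested with edgeR's quasi-likelihood test, 0 (0%) had a Benjamini-Hochberg adjusted p under 0.05. At an unadjusted p under 0.05 stood 383 genes with higher means in PH females (2.12%) and 538 with lower means (2.98%). DESeq2 called 18 genes on the same libraries and limma voom called 0. DESeq2 gave no adjusted p to 12988 of the 18081 genes, so its adjustment ran over fewer genes than that of edgeR. Of the genes described below, DESeq2 called ENTPD4, cirbpb, PER2, PDE3B, HIVEP2, ZNF292, cry3a, tcf20, SPEN (ENSDARG00000074332), HSD17B12 and pclob with higher means, and akt1s1, SH3BGRL and TIMP2 (ENSDARG00000061226) with lower means. In 279 genes (1.54%) all 4 PH females lay above all 4 SCA females, and in 325 genes (1.8%) all 4 lay below. The median log2 fold change of all tested genes was 0.00.

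Without F0_F_SCA 18 the outcome was the same in number. edgeR called 0 of 18329 genes (0%), with 355 higher (1.94%) and 450 lower (2.46%) at an unadjusted p under 0.05, and DESeq2 called 15. Here DESeq2 gave no adjusted p to 14925 genes. Of the 921 genes under 0.05 with all libraries, 580 (63.0%) were also among the 805 without SCA 18, which is 72.0% of that list. Among the 538 with lower means, 59 were genes that stood more than 4-fold apart in SCA 18. With 3 control fish in place of 4, which leaves more room for groups not to overlap, 454 genes (2.48%) lay wholly higher and 622 (3.39%) wholly lower. edgeR also called 0 genes when both SCA 18 and PH 9 were left out.

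**Figure D2:**
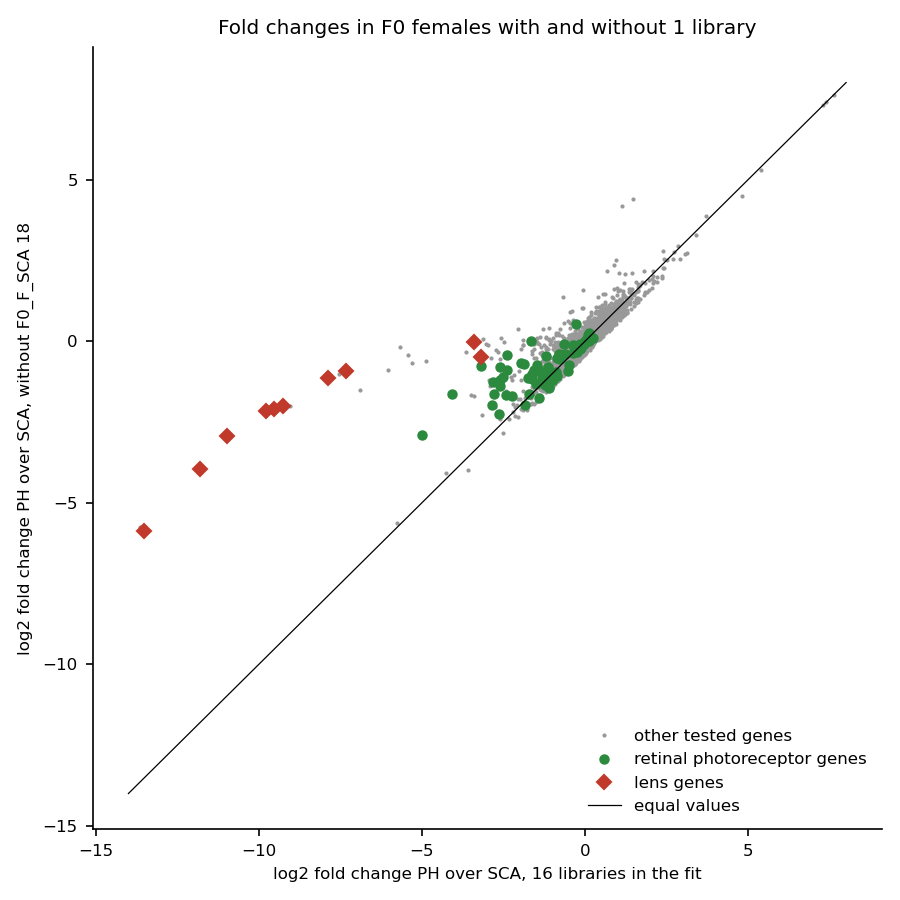
Log2 fold change of PH over SCA females for each gene tested in both fits, with all 16 F0 libraries (horizontal axis) and without F0_F_SCA 18 (vertical axis), the line marking equal values. Lens genes (red) lie far above the line, as their values are nearer 0 without that library; several photoreceptor genes (green) do the same, while most other genes stay near the line.

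The gene of smallest p was ENTPD4, a nucleotide-hydrolysing enzyme of the Golgi and lysosomes. It lay at 54.7, 64.2, 51.9 and 52.4 CPM in PH 9, 10, 15 and 16, against 39.1, 36.0, 35.8 and 37.2 CPM in SCA 14, 15, 16 and 18. Every exposed female was above every control, and the 4 controls were close together. The log2 fold change was 0.59 ± 0.09 (SE) with an edgeR adjusted p of 0.0927 (2.96e-06 in DESeq2), and the value without SCA 18 was 0.59 ± 0.10 (adjusted p = 0.394). Of the 10 genes of smallest p with higher means, ENTPD4 came nearest to the threshold, and the other 9 had edgeR adjusted p-values of 0.411 to 0.632.

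Clock and light-regulated genes stood among those next in order. PER2, a clock repressor induced by light in fish, lay at 200.3, 179, 219 and 246 CPM in PH females, against 102, 118, 125 and 141 CPM in SCA females. The groups did not overlap, and the log2 fold change was 0.80 ± 0.16 (edgeR adjusted p = 0.411; 0.87 ± 0.17 without SCA 18). The cryptochrome cry3a lay at 320.2, 294, 294 and 319 CPM in PH and 218, 196, 196 and 225 CPM in SCA females, which is 0.56 ± 0.12 on a log2 scale (adjusted p of edgeR = 0.52). It is uncertain how the counting divided reads between cry3a and its close copy cry3b, whose means were 42.3 ± 7.49 CPM in PH and 28.3 ± 5.14 CPM in SCA females (SD, n = 4 each) with overlapping groups. The RNA-binding protein cirbpb, whose mammalian relative is induced by mild cold and follows the daily cycle, had 1329, 1192, 1107 and 1069 CPM in PH and 897, 805, 875 and 899 CPM in SCA females. These groups were also apart (log2 fold change 0.43 ± 0.09, adjusted p from edgeR 0.411), whereas its paralogue cirbpa lay at a log2 fold change of -0.02 ± 0.09.

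The remaining genes with higher means were of modest fold. PDE3B, a cyclic nucleotide phosphodiesterase, averaged 77.8 ± 5.97 CPM in PH and 59.8 ± 2.98 CPM in SCA females (log2 fold change 0.38 ± 0.08). HIVEP2, a zinc finger transcription factor, averaged 645 ± 27.3 and 436 ± 37.9 CPM (0.56 ± 0.12). The nuclear regulators ZNF292, tcf20 and SPEN (ENSDARG00000074332), the last a large corepressor, had log2 fold changes of 0.45 ± 0.10, 0.37 ± 0.08 and 0.39 ± 0.09. In PDE3B, HIVEP2, tcf20 and SPEN no PH female overlapped with a control, while in ZNF292 PH 16 (105 CPM) lay just under SCA 14 (106 CPM). The aminopeptidase gene anpeplb was a rare transcript at 4.13, 3.15, 3.03 and 2.95 CPM in PH and 0.394, 1.31, 1.26 and 1.19 CPM in SCA females, without overlap (1.65 ± 0.39, edgeR adjusted p = 0.632).

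Among genes with lower means, cyp2ad3 had the smallest p. This cytochrome P450 of a family that oxidises foreign compounds and fatty acids lay at 9.90, 9.08, 10.2 and 7.38 CPM in PH females, against 19.3, 19.5, 15.01 and 14.6 CPM in SCA females. All exposed fish lay under all controls, and the log2 fold change was -0.90 ± 0.17 (edgeR adjusted p = 0.411; -0.97 ± 0.18 without SCA 18). akt1s1, an inhibitory partner of mTOR complex 1, had 145, 149, 160.2 and 150.3 CPM in PH and 188, 182, 190.1 and 199 CPM in SCA females. These groups were apart too, with a log2 difference of -0.33 ± 0.06 and an adjusted p of 0.411 in edgeR.

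SH3BGRL, a small thioredoxin-fold protein, averaged 52.0 ± 4.395 CPM in PH and 71.8 ± 9.24 CPM in SCA females (log2 fold change -0.46 ± 0.10). FBXO25, a ubiquitin ligase subunit, averaged 15.3 ± 1.23 and 22.8 ± 1.91 CPM (-0.58 ± 0.13). TIMP2 (ENSDARG00000061226), an inhibitor of matrix metalloproteinases, averaged 184 ± 10.0 and 232 ± 21.2 CPM (-0.33 ± 0.08). cobll1b, an actin regulator gene, averaged 6.45 ± 0.905 and 11.05 ± 2.28 CPM (-0.78 ± 0.20, or -0.66 ± 0.21 without SCA 18). In all 4 genes every PH female lay below every SCA female, and edgeR adjusted p-values ran from 0.52 to 0.632.

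IQCH, a gene with an IQ calmodulin-binding motif that is known from sperm in mammals, had the largest fold of the 20 genes of smallest p outside the lens. It lay at 0.825, 0.631, 0.882 and 0.984 CPM in PH females, against 15.5, 11.3, 16.3 and 22.2 CPM in SCA females. Exposed fish were uniformly near 0 and controls uniformly high, and the log2 fold change, -4.27 ± 0.91, had an edgeR adjusted p of 0.52. It was the only gene called when the 8 females were fitted alone (edgeR adjusted p = 0.000347). In F0 males the gene took the same high and low levels within both groups: on the scale of all 48 libraries, PH males had 0.629, 10.8, 16.5 and 23.3 CPM and SCA males 0.600, 11.7, 12.5 and 15.3 CPM, each sorted by size. The levels thus stepped between single fish in males, with 1 low fish in each group.

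The 3 remaining genes of smallest p with lower means were crystallins. CRYGS (ENSDARG00000042992) lay at 0.138, 0.505, 0 and 0.246 CPM in PH females, against 1.97, 2.73, 33.9 and 12196 CPM in SCA females. CRYBB2 had 0.963, 0.252, 1.13 and 0.615 CPM in PH and 2.36, 1.66, 31.3 and 10748 CPM in SCA females, and crygm6 0.138, 0, 0.126 and 0.123 CPM in PH and 1.84, 1.31, 16.5 and 5288 CPM in SCA females. These are structural proteins of the lens. Levels in PH females rest on a few counts per library, so the fitted folds of CRYGS and crygm6 depend on the prior count and are no bounds. CRYBB2 had a log2 fold change of -11.81 ± 2.83 with all libraries and -3.97 ± 0.95 without SCA 18 (edgeR adjusted p = 0.632 and 0.831).

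**Figure D3:**
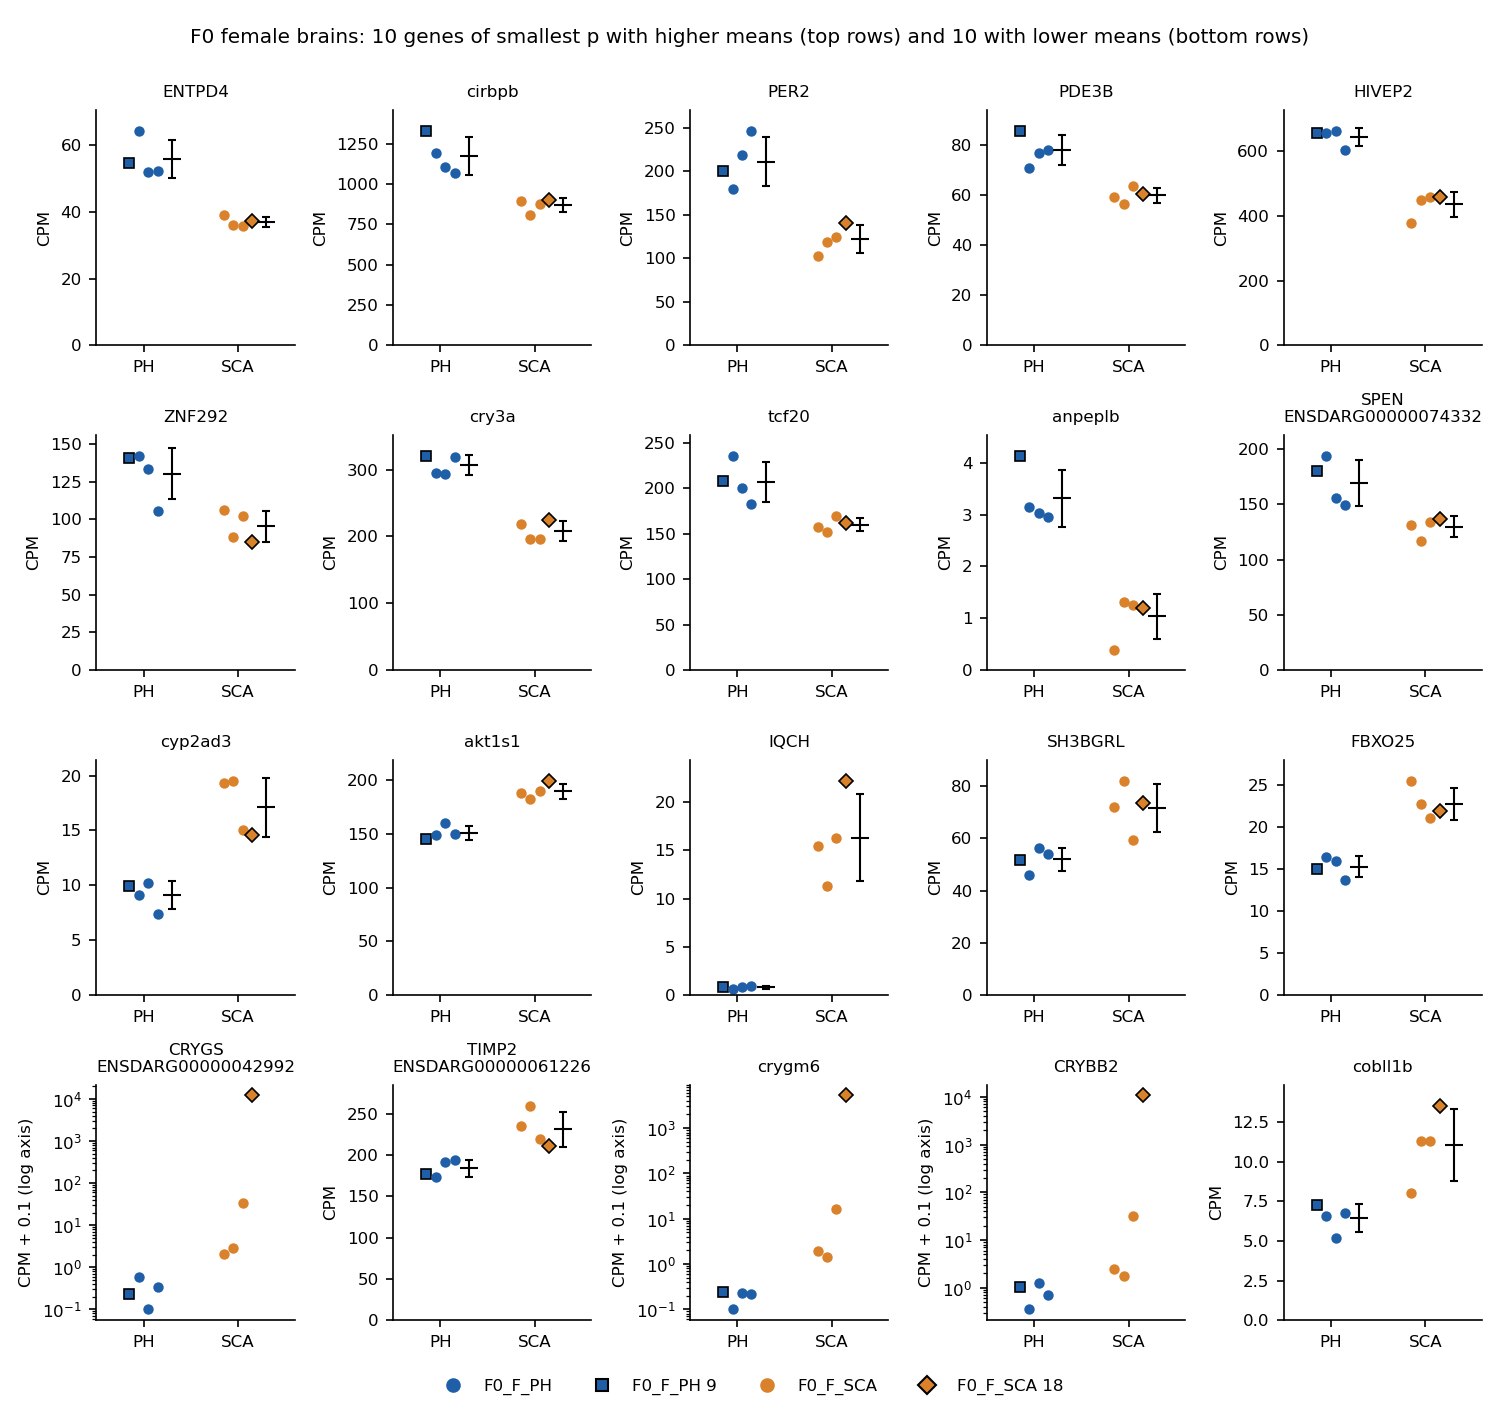
CPM in each F0 female library for the 10 genes of smallest p with higher means (top 2 rows) and the 10 with lower means (bottom 2 rows), PH left and SCA right. Black bars give the mean and SD of 4 fish, 3 crystallin panels have a log axis without them, and F0_F_PH 9 (square) and F0_F_SCA 18 (diamond) are marked; the groups are apart in all panels except ZNF292.

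The largest folds among genes whose groups did not overlap belonged to rare transcripts. vwa7, a gene with a von Willebrand factor domain, had 4.26, 5.42, 5.80 and 5.29 CPM in PH and 0.787, 1.31, 0.505 and 1.19 CPM in SCA females (log2 fold change 2.43 ± 0.69, edgeR adjusted p = 0.701). itgam.1, related to an integrin of myeloid cells, had 6.33, 9.84, 9.20 and 6.52 CPM in PH and 1.97, 1.90, 2.52 and 1.86 CPM in SCA females (1.94 ± 0.53, edgeR adjusted p = 0.676). In both genes the controls lay well below the exposed fish. sp100.3, named after a nuclear body protein, and lat, an adaptor of T cell receptor signalling, had log2 fold changes of 2.04 ± 0.90 and 1.62 ± 0.67. The value of lat rested on PH 9, at 3.71 CPM against 0.757, 0.756 and 0.861 CPM in the other PH and 0.357 to 0.531 CPM in SCA females, and leaving PH 9 out gave 0.71. The 5 genes of largest fold with lower means were all crystallins.

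Sodium channel genes, the known targets of permethrin, had small folds. Of 14 IDs on the list, 11 were tested, 8 had higher and 3 lower means, 0 passed, and their median log2 fold change was 0.07. The main brain channel SCN8A (ENSDARG00000005775) lay at 223, 252, 262 and 262 CPM in PH and 209.7, 240.4, 231 and 232 CPM in SCA females (0.13 ± 0.10). The accessory subunit SCN4B (ENSDARG00000060319) was the 1 member whose groups did not overlap, at 0.550, 2.27, 3.03 and 1.72 CPM in PH and 5.51, 4.52, 4.92 and 3.18 CPM in SCA females (-1.25 ± 0.52, edgeR adjusted p = 0.933). Its counts were few.

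Calcium channel subunits leaned higher as a list. Of 39 tested members 33 had higher and 6 lower means, with a median of 0.14 beside 0.00 for all tested genes. In 4 of the 39 the PH females lay wholly above the controls, beside 1.54% of all genes, and in 0 wholly below. Their summed level was 2259, 2143, 2141 and 2161 CPM in PH 9, 10, 15 and 16. In SCA females it was 1939.5, 1954, 1999.6 and 1964 CPM, so these sums did not overlap either. By the typical member, though, the groups overlapped. The median log2 deviation of the tested members was -0.058, 0.028, 0.057 and 0.131 in PH 9, 10, 15 and 16. In SCA 14, 15, 16 and 18 it was -0.203, 0.067, -0.024 and -0.082. cacnb4b, an auxiliary beta subunit, had 401, 321, 301 and 298 CPM in PH and 284, 255, 290.5 and 286 CPM in SCA females (0.25 ± 0.09, edgeR adjusted p = 0.868). The low-voltage channel CACNA1I lay at 0.72 ± 0.27 and cacna1aa, a presynaptic channel, at 0.21 ± 0.09. No member passed the test, and in F0 males the median of the list was 0.01. Medians of similar size in F0 females were not limited to channel genes. Skeletal muscle genes had a median of 0.18 (26 higher and 13 lower means) and stress axis and glucocorticoid response genes 0.12 (24 and 9).

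Other genes of firing and transmission had smaller positive medians. Summed potassium channels were at 1862 to 1939 CPM in PH and 1736 to 1852 CPM in SCA females. Summed synaptic vesicle genes were at 20042 to 21232 and 19096 to 19830 CPM. These sums did not overlap between the groups either, but the gaps were narrow. By the median log2 deviation of the tested members both lists overlapped. For potassium channels it was -0.314 in PH 9 and 0.109 to 0.239 in the other PH females, against -0.262 to 0.163 in SCA females. For synaptic vesicle genes it was -0.052 in PH 9 and 0.048 to 0.075 in the other PH females, against -0.086 to 0.066 in SCA females. Potassium channels had 36 higher and 13 lower means among 49 (median 0.07), GABA signalling genes 24 and 10 among 34 (0.11), glutamate receptors and transporters 31 and 17 among 48 (0.06) and synaptic vesicle genes 37 and 19 among 56 (0.05). GRIA2 (ENSDARG00000070173), an AMPA receptor subunit, had 303, 319.9, 305 and 313 CPM in PH and 269, 266, 270.2 and 274 CPM in SCA females. This was a small difference with tight groups (0.20 ± 0.06, edgeR adjusted p = 0.702). KCNC1 (ENSDARG00000051852), a potassium channel of fast-firing neurons, had a log2 fold change of 0.20 ± 0.06, and 0.24 ± 0.06 without SCA 18, where DESeq2 called it. The active zone scaffold pclob lay at 0.21 ± 0.06 and was called by DESeq2 with all libraries. Neuropeptide precursors, beside the lower telencephalon and preoptic lists above, had 12 higher and 27 lower means among 39 and a median of -0.14, while monoamine genes had 18 and 26 among 44 (-0.06).

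The list of light-induced and photolyase genes had the highest median of the 42 lists, 0.25, with 10 higher and 1 lower mean among 11 tested. Its summed level was 936, 832, 925 and 974 CPM in PH 9, 10, 15 and 16, against 753, 706, 728 and 757 CPM in SCA females, without overlap. CRY1 (ENSDARG00000045768), a clock cryptochrome, had 286, 287, 265 and 269 CPM in PH and 255, 227, 233 and 254 CPM in SCA females (0.19 ± 0.07, edgeR adjusted p = 0.85). DDB2, which recognises ultraviolet damage in DNA, lay at 0.32 ± 0.14, and the photolyase cry5 at 0.28 ± 0.16, both with overlapping groups. In the wider list of clock genes, 31 of 50 had higher means and the median was 0.04. At an unadjusted p under 0.05 stood 4 members, PER2, cry3a, cry3b and CRY1, all with higher means, beside 2.12% of all genes.

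Genes of detoxification had more members at a low p with lower than with higher means. Of 89 xenobiotic metabolism IDs 48 were tested, 21 with higher and 27 with lower means (median -0.13), and at an unadjusted p under 0.05 stood 1 higher and 7 lower, beside 2.12% and 2.98% of all genes. In 6 of 48 the PH females lay wholly below the controls, beside 1.8% of all genes. The summed level of the list overlapped, at 787 to 836 CPM in PH and 787 to 840 CPM in SCA females. The glutathione transferase GSTZ1 had 6.33, 5.05, 4.79 and 6.03 CPM in PH and 8.66, 7.73, 9.21 and 6.37 CPM in SCA females (-0.53 ± 0.16, edgeR adjusted p = 0.744). The P450 gene cyp3c1 lay at -0.56 ± 0.20, the efflux pumps ABCB4 and abcg2a at -0.30 ± 0.13 and -0.61 ± 0.23, and the sulphotransferase sult1st1 at -0.63 ± 0.28. The 1 member with a higher mean at an unadjusted p under 0.05 was POR (ENSDARG00000055092), the reductase that feeds electrons to P450 enzymes, at 0.49 ± 0.21. Without SCA 18, 0 higher and 9 lower members of 50 tested stood at that level, beside 1.94% and 2.46% of all genes. The median of the list was -0.06 without PH 9 and -0.05 without PH 10 or without SCA 15. Oxidative stress genes had 11 higher and 29 lower means among 40, with a median of -0.07. MT1X, a metallothionein that binds zinc and was chosen after its values were seen, had 116, 92.8, 119.8 and 145 CPM in PH and 178, 204, 202 and 154 CPM in SCA females (-0.64 ± 0.17, edgeR adjusted p = 0.676).

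Regulators of mTOR and autophagy held a similar imbalance at low p without a shift of the list as a whole. Of 51 tested members 22 had higher and 29 lower means (median -0.04), and at an unadjusted p under 0.05 stood 1 higher and 7 lower, beside the same 2.12% and 2.98%. Besides akt1s1, the small GTPase rhebl1 had 29.8, 29.6, 29.1 and 32.2 CPM in PH and 41.9, 39.6, 36.1 and 46.8 CPM in SCA females (-0.44 ± 0.12, edgeR adjusted p = 0.632). SESN1, a stress-induced restrainer of mTOR complex 1, had 151, 114, 165 and 159 CPM in PH and 202, 208, 193 and 173 CPM in SCA females (-0.40 ± 0.12, edgeR adjusted p = 0.701). In both genes the groups were apart.

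Of the endocrine and epigenetic lists, thyroid hormone genes leaned higher and the medians of the others were near 0. HSD17B12, an enzyme of long-chain fatty acid and oestrogen synthesis, had 101, 75.0, 94.3 and 84.4 CPM in PH and 62.1, 57.4, 58.7 and 64.0 CPM in SCA females (0.55 ± 0.14, edgeR adjusted p = 0.632). The groups were well apart, while the median of 24 sex steroid genes was -0.02. The summed level of the sex steroid list was 400 to 512 CPM in PH and 370 to 394 CPM in SCA females, without overlap. By the median log2 deviation of the tested members the groups overlapped, at -0.117 to 0.109 in PH and -0.137 to 0.103 in SCA females. Thyroid hormone genes had 17 higher and 3 lower means among 20 (median 0.15), with overlapping sums of 1142 to 1414 CPM in PH and 1078 to 1285 CPM in SCA females. Among them the receptor THRA (ENSDARG00000000151) lay at 0.63 ± 0.22 with overlapping groups. Of 25 DNA methylation genes 12 had higher and 13 lower means, and the maintenance methyltransferase DNMT1 lay at 0.25 ± 0.09 with groups apart.

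Metabolic lists showed small shifts. Cholesterol synthesis had 5 higher and 26 lower means among 31, with a median of -0.18 that became -0.08 without SCA 18. Its enzymes FDPS and SQLE (ENSDARG00000079946) were highest in SCA 18, at 55.5 and 13.7 CPM, against 20.5 to 32.6 and 1.84 to 5.78 CPM in PH females. The summed level of the list overlapped, at 448 to 619 CPM in PH and 477 to 748 CPM in SCA females. The highest control apart from SCA 18 was at 622 CPM. Nuclear genes of oxidative phosphorylation had 55 higher and 32 lower means among 87 (median 0.02). Cytosolic ribosomal protein genes had 10 higher and 68 lower means among 78 with a median of only -0.08, and 0 of them stood at an unadjusted p under 0.05.

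Markers of several non-neuronal cell types leaned lower in exposed females. In F0 males the medians of the microglia, myelin, endothelial and meningeal lists were -0.03, -0.17, -0.34 and -0.17. Microglia and macrophage markers had 10 higher and 29 lower means among 39 (median -0.22), with 5 lower and 0 higher at an unadjusted p under 0.05 (2.98% and 2.12% of all genes), and 2 lower without SCA 18. MPEG1 (ENSDARG00000055290), a macrophage pore-forming protein, had 3.30, 2.77, 3.28 and 2.71 CPM in PH and 7.61, 5.83, 3.91 and 4.64 CPM in SCA females (-0.86 ± 0.24, edgeR adjusted p = 0.679). The summed markers overlapped, at 753 to 846 CPM in PH and 803 to 1042 CPM in SCA females. Oligodendrocyte and myelin genes had 6 higher and 13 lower means among 19 (median -0.16) and endothelial and pericyte genes 8 and 24 among 32 (-0.17, or -0.06 without SCA 15). Meningeal, keratin and epithelial genes had 7 and 28 among 35 (-0.23). The keratin krt8 in that list had 80.2, 75.6, 69.5 and 62.7 CPM in PH and 93.2, 91.6, 102 and 76.7 CPM in SCA females (-0.33 ± 0.11), with overlapping groups. Summed myelin genes overlapped, at 7562 to 11480 CPM in PH and 8196 to 12644 CPM in SCA females. So did summed endothelial genes (384 to 441 and 431 to 460 CPM) and summed meningeal genes (606 to 739 and 666 to 830 CPM).

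Genes of dividing cells had mostly lower means too. Cell cycle and neurogenesis genes had 13 higher and 33 lower means among 46 (median -0.15), and in 5 the PH females lay wholly below the controls, beside 1.8% of all genes. Their summed level was not lower, at 3933 to 4757 CPM in PH and 3931 to 4505 CPM in SCA females. TOP2A, a topoisomerase of dividing cells, had 3.85, 5.17, 3.53 and 2.09 CPM in PH and 3.28, 7.13, 7.82 and 8.36 CPM in SCA females (-0.86 ± 0.32, edgeR adjusted p = 0.868), with SCA 14 inside the range of the exposed fish. Radial glia and astroglia markers had 8 higher and 20 lower means among 28, with a median of -0.07 (-0.27 in F0 males). VIM (ENSDARG00000010008), the filament protein of radial glia and of many other cells, lens included, had 92.3, 77.6, 74.9 and 85.7 CPM in PH and 105, 101, 111 and 179.5 CPM in SCA females. Its log2 fold change was -0.59 ± 0.15 with all libraries and -0.36 ± 0.10 without SCA 18. Neuron markers were near the background, with 19 higher and 10 lower means among 29 (median 0.05).

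**Figure D4:**
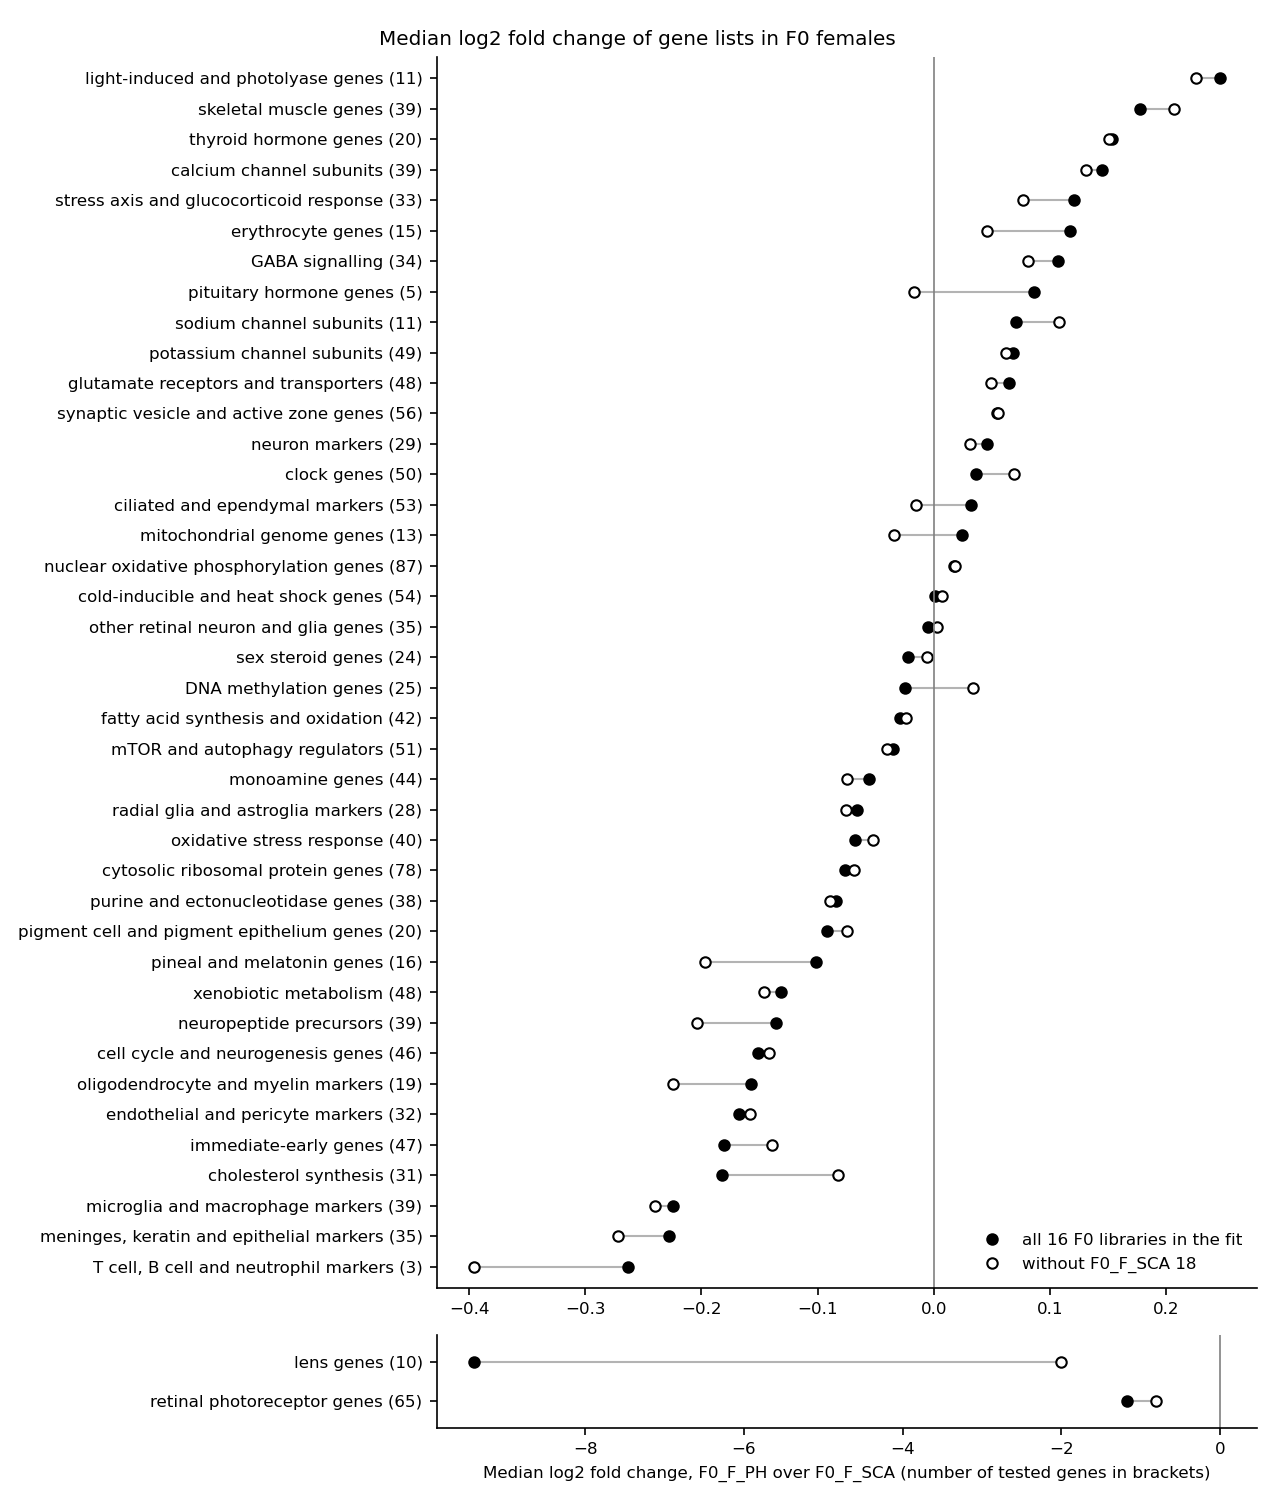
Median log2 fold change of PH over SCA females for each of 42 gene lists (tested members in brackets), with all 16 F0 libraries (filled) and without F0_F_SCA 18 (open). Light-induced genes are at the top with 0.25, most lists stay within 0.3 of 0, and the lens and photoreceptor lists, on their own axis, reach -9.40 and -1.17.

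Of the eye lists, lens and photoreceptor genes had mostly lower means in exposed females, also where SCA 18 was left out. Other retinal neuron and glia genes had 16 higher and 19 lower means among 35 (median -0.00), and pigment genes 8 and 12 among 20 (-0.09). Retinal photoreceptor genes had 7 higher and 58 lower means among 65 tested of 93 IDs, with a median of -1.17 and -0.81 without SCA 18, and 0 members passed either fit. At an unadjusted p under 0.05 in edgeR stood 0 higher and 12 lower members, beside 2.12% and 2.98% of all genes. Without SCA 18 only 1 higher and 1 lower did, beside 1.94% and 2.46%. The summed level of the photoreceptor list was 936, 1465, 965 and 964 CPM in PH 9, 10, 15 and 16, against 1009, 1258.5, 1565 and 2105 CPM in SCA females, so PH 10 lay among the controls. Outside SCA 18 the highest sums were those of PH 10, SCA 15 and SCA 16, the same fish that had high ASMT, a pineal gene. Leaving PH 10 out moved the median to -2.37. The 10 tested lens genes all had lower means, with a median of -9.40, which over the same 10 genes was -2.05 without SCA 18. The other 56 lens IDs did not pass the filter on low counts, which needs several libraries above a minimum. A gene near 0 in PH females, such as crygm6, passes that filter only through the other fish. The lower means of the tested lens genes can thus be set by the filter and are no separate support. In the remaining 3 controls the summed lens level stayed above the 23.1 to 24.6 CPM of PH females, by far the most in SCA 16. It was 39.5, 40.0 and 232 CPM in SCA 14, 15 and 16. In F0 males the summed lens level was 21.2 to 42.7 CPM in PH and 15.5 to 23.7 CPM in SCA fish. The summed lens level was thus lower in exposed than in control females, while in males the groups overlapped and the median of the list was 0.77. The photoreceptor median in F0 males was -0.22. The amount of eye and pineal tissue left on each brain was not measured, and its part in these values cannot be told apart from the treatment.

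Most of the leading genes of females had a smaller fold in F0 males. They were chosen by their p in females, which by itself favours smaller folds in males and a difference between the sexes. A test of the difference between the sexes called 0 of 18081 genes (0%) with edgeR, with 579 at an unadjusted p under 0.05, and 0 with DESeq2 or limma voom. ENTPD4 had a log2 fold change of 0.59 ± 0.09 in females and 0.06 ± 0.09 in males, a difference of 0.53 (edgeR unadjusted p = 0.000623, adjusted p = 0.998, so not passed). PER2 had 0.80 ± 0.16 in females and 0.04 ± 0.15 in males, and akt1s1 -0.33 ± 0.06 and 0.01 ± 0.06. In contrast cry3a had 0.56 ± 0.12 in females and 0.44 ± 0.12 in males, and cyp2ad3 -0.90 ± 0.17 and -0.56 ± 0.17. Both of these genes kept the sign of the females in the males, but edgeR called neither in either sex. The PH and SCA males were run on different sequencing lanes, which cannot be told apart from the male groups.

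In unexposed female descendants the same genes took varied values. In F1 females, set against their own controls, cry3a had a log2 fold change of 0.67 ± 0.19, ENTPD4 one of -0.16 ± 0.09 and PER2 one of -0.40 ± 0.40. In F2 females ENTPD4 lay at 0.36 ± 0.11, cirbpb at 0.30 ± 0.08, anpeplb at 1.07 ± 0.47, cry3a at -0.15 ± 0.14 and cyp2ad3 at 0.44 ± 0.21. ENTPD4 in F2 females had 51.5 to 58.4 CPM in PH and 36.8 to 45.1 CPM in SCA fish, on the scale of all 48 libraries, and was thus apart as in F0 females, where those ranges were 51.0 to 62.7 and 34.6 to 38.0 CPM. These comparisons share no library with that of the F0 females, and the genes were chosen in F0 females.

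**Figure D5:**
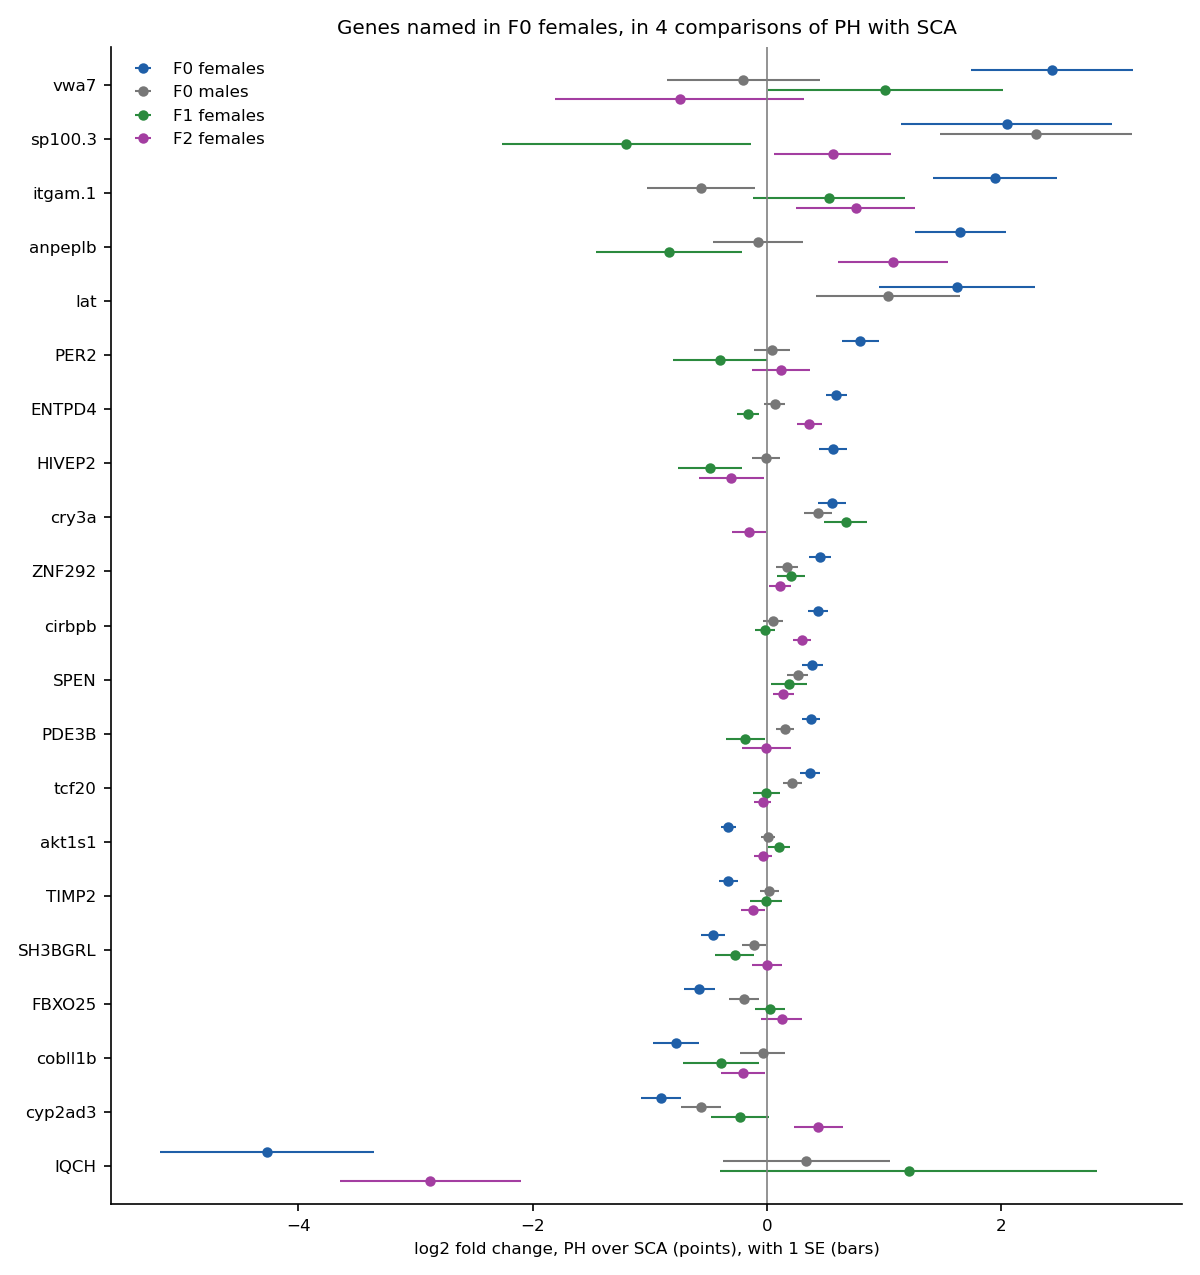
Log2 fold change of PH over SCA (points, with 1 SE) in F0 females, F0 males, F1 females and F2 females for the named genes outside the lens. The 21 genes lie away from 0 in F0 females, by which they were chosen, while cry3a lies above 0 in F0 males and F1 females as well, and ENTPD4 and cirbpb in F2 females; lat was not tested in F1 and F2 females.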

How the data were processed

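The deposited files hold raw counts per gene for 1 library each, made with STAR 2.7 and HTSeq 0.11.2 on GRCz11 (danRer11), per the submitters' processing notes, which also name DESeq2 1.24.0. Per the labels' protocols, RNA came from dissected, frozen brains by a TriPrep kit and was sequenced as read pairs on a BGI-Seq500. Neither the strand setting nor the gene annotation's release is given in the sources used, so overlapping and antisense genes cannot be told apart. Of the 32520 Ensembl IDs, 29201 have a symbol in the name table, often in human spelling, and 6136 share it with another ID, whose Ensembl ID is then printed. The 5 summary lines that name no gene stayed out of all steps. In the 8 female libraries reads over no annotated feature made up 63.2 to 64.6% of the totals and reads in genes 32.1 to 33.6%.

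With R 4.3.3, the 16 F0 libraries were fitted in edgeR 4.0.16 as 4 group means with filterByExpr, TMM and robust quasi-likelihood dispersions (biological coefficient of variation 23.3%), and again to 15 without F0_F_SCA 18 (22.8%). The script was tested on simulated data. Calls needed a Benjamini-Hochberg adjusted p under 0.05. Standard errors come from the F statistic. F1 and F2 females were fitted within their own generation. DESeq2 1.42.0 and limma 3.58.1 (voom) were alternatives. CPM uses TMM-scaled library sizes of the 16 libraries except where the scale of all 48 is named.

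Named genes have a proper symbol and a mean of at least 1 CPM: the 10 of smallest p in each direction with and without F0_F_SCA 18, the 5 of largest fold in each direction among those whose groups do not overlap, the 2 of smallest p in each list, and the 5 of largest excess in F0_F_SCA 18 in each eye list. Others, brain region genes among them, were chosen after their values were seen. Of 2156 listed members 1958 (90.8%) matched an ID. The comparison, lists and genes were chosen with earlier results of these data known. The labels name no tanks or parents: p-values reflect only how these fish vary. No 2 libraries of a group were duplicates (lowest chi-square per degree of freedom 4.76). Results of some named genes are not reported here.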

Additional observations from a re-analysis of the deposited data

Results flagged for a closer look

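Checks for a sample far from the others of its group were made in 92 groups of 4 values from the named genes and the summed lists, and chance alone marks about 1 in 20 of such groups. F0_F_SCA 18 lay far above the other controls for lens transcripts. It had 12196 CPM of CRYGS (ENSDARG00000042992), 5288 CPM of crygm6, 10748 CPM of CRYBB2, 2514 CPM of crybb1l2, 2128 CPM of CRYGS (ENSDARG00000041171) and 68786 CPM of summed lens genes. F0_F_PH 10 lay apart from the other exposed females with 196 CPM of summed pineal genes, 1465 CPM of summed photoreceptor genes and 162 CPM of summed pigment genes. Its 0 CPM of crygm6 stands against 1 read in each of the other exposed females and shows no difference. In HIVEP2 the lowest exposed fish, F0_F_PH 16 at 604 CPM, and the lowest control, F0_F_SCA 14 at 379.8 CPM, each stood away from their group. In lat the highest exposed fish was F0_F_PH 9 at 3.71 CPM and the lowest control F0_F_SCA 15 at 0.357 CPM. Single controls also stood away in anpeplb (F0_F_SCA 14, 0.394 CPM) and itgam.1 (F0_F_SCA 16, 2.52 CPM). Summed meningeal, keratin and epithelial genes were highest in F0_F_PH 9 at 739 CPM among exposed fish and in F0_F_SCA 14 at 829.6 CPM among controls. Summed cerebellum genes were lowest in F0_F_SCA 15, at 3783 CPM.

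CRYGS (ENSDARG00000042992) and crybb1l2 had fitted log2 fold changes of -13.64 and -9.54 in F0 females, where all exposed fish lay below all controls, while in F0 males all exposed fish lay above all controls. These opposite orders were noted without a test of their own, and the edgeR test of the difference between the sexes called neither (adjusted p = 0.998 for each). The values in females depend on F0_F_SCA 18, on a few counts in the exposed fish and on the prior count of the fit, and are no bounds of a fold.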

How the results depend on the processing

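The count of 0 genes called in F0 females stayed 0 under limma voom, under the other scaling, filters and dispersion setting tried, and without each of the 8 females in turn (0 to 0). It was 18 with DESeq2, 1 with the 8 females alone and 32 with all 48 libraries. Of those 32 genes, 29 lay in F0_F_SCA 18 more than 4-fold above the median of the other 7 females (on CPM + 1). The 3 with higher means were ENTPD4, cirbpb and ZNF292 (edgeR adjusted p = 0.000349, 0.000997 and 0.0430). Without F0_F_SCA 18 the count of 0 became 15 with DESeq2, 1 with 7 females alone and 3 with 47 libraries. Those 3 were ENTPD4 (edgeR adjusted p = 0.0158), with a higher mean like cirbpb (0.0378), and CRYBB2 (0.0378), with a lower mean. In the fit of F0 libraries the count was 0 to 0 with 1 more library left out. Leaving out F0_F_PH 9 as well was chosen after seeing the data. The 604 genes whose groups did not overlap became 1076 without F0_F_SCA 18 (fewer samples). Only numbers 15 and 16 occur in both groups. On those 4 libraries 60 genes were called with a replicate block and 22 with no block, and same-numbered fish deviated together with correlations of 0.12 and 0.13. Of 1979 values of the 111 named genes under these settings, 1931 kept direction and side of the threshold, 34 newly passed it and 14 changed sign. With the block and with no block on those 4 libraries, the log2 fold change was 0.32 and 0.31 for sst1.2, 0.062 and 0.13 for prl2, and 0.28 and 0.28 for OPN4 (ENSDARG00000007553), which was 0.13 under voom. Leaving out 1 library, prl2 ran from -0.42 to 0.058, OPN4 from -0.70 to 0.65, rlbp1b from -1.44 to 0.13 and PAX7 (ENSDARG00000100398) from -0.32 to 0.10. Of 378 list medians, 19 moved by more than the spread of the list's fish. The cause of these changes was not tested. Precision is limited by 4 fish a group and, for rare genes such as crygm6, by a few counts.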

Other observations

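Immediate-early genes, which neurons switch on within minutes of activity or handling, had 15 higher and 32 lower means among 47 tested (median log2 fold change -0.18), with 0 called by edgeR. The exposed fish differed among themselves. The median log2 deviation of the tested members was 0.22, -0.03, -0.19 and -0.07 in PH 9, 10, 15 and 16. In SCA 14, 15, 16 and 18 it was 0.08, 0.04, 0.19 and 0.05. FOS, a subunit of the AP-1 transcription factor, lay at 129, 117, 24.0 and 48.2 CPM in PH 9, 10, 15 and 16, against 124, 103, 119.07 and 145 CPM in SCA 14, 15, 16 and 18. The transcription factor egr1 had 804, 770.4, 267 and 398 CPM in PH and 641, 569, 720.0 and 778 CPM in SCA females. PH 15 and PH 16 were thus below every control in both genes, while PH 9 and PH 10 lay at the level of the controls or above it.

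KLF9, whose transcription cortisol and thyroid hormone raise, took the opposite order. It lay at 23.2, 4.41, 113 and 70.5 CPM in PH females, against 15.5, 24.1, 41.9 and 13.5 CPM in SCA females, with PH 15 and PH 16 above every control (log2 fold change 1.15 ± 0.72, unadjusted p = 0.132 in edgeR). These genes were chosen after their values were seen, and the difference between exposed fish was not tested.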
